A study of Rattus norvegicus with 6 samples.

Results

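The genes described here are homeobox transcription factors and related factors that mark where along the body a tissue arose. They were taken by name from the gene table, as the Hox genes, the Pax, Lhx, Lmx1, Six2, Six4, Emx, Msx, Dlx, Nkx, Irx, Pitx, Prrx, Alx, Barx, Shox2, En, Otx, Cux, Meis, Pbx and Pknox genes and the Tbx, Twist, Tcf21 and Hand genes, with a few relatives of these, each with at least 3 reads in at least 1 of the 6 libraries. This gave 74 members of 13728 genes in the table, out of 82 names that matched the pattern. The 8 left out for too few reads were Hoxb1, Pax3, Tbx1, Irx4, Nkx1-2, Nkx2-6, Six2 and Lhx9. Of the 74 members, 25 were Hox genes, 38 were other homeobox genes and 11 were T-box or bHLH genes. The last 11 are patterning factors but do not carry a homeodomain, so the name homeobox does not describe them.

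RNA-seq was performed on 3 samples of rEEOs and 3 samples of rBMSCs, 1 library each. The rEEOs are rat endometrial epithelial organoids, hollow spheres of epithelium grown from uterine gland fragments of female SD rats 5 weeks old, in Matrigel with an expansion medium of growth factors. The rBMSCs are rat bone marrow mesenchymal stem cells labeled with RFP, which were purchased as frozen cells and grown in a serum medium, and may come from a single lot. No further treatment is stated for either group, and tissue of origin, cell class, culture and donor differ together between the groups and cannot be told apart. Nothing in the labels says that the 3 samples of a group came from separate animals or cultures, so each p-value below measures only the spread between these samples.

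Hox genes stand in 4 clusters, HoxA to HoxD, and carry a paralog number from 1 to 13. Low numbers lie at one end of a cluster and are used toward the head of the embryo, and high numbers lie at the other end and are used toward the tail and the tips of the limbs. Cells taken from adult tissues often keep the Hox pattern of the place they came from. In the female tract, which forms from the Müllerian ducts, Hoxa10, Hoxa11 and Hoxa13 are known from the uterus, cervix and vagina, while Pax2, Pax8 and Emx2 are factors of the duct epithelium. Members of the TALE group (Meis, Pbx and Pknox) bind DNA as partners of Hox proteins.

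Library totals lay between 10457948 and 15421494 reads over the genes held, and 3 counts in each library, used below as the floor where a group had no read, corresponded to 0.181 to 0.262 CPM (counts scaled to library size). Levels are given as TPM, which is scaled for depth and transcript length and allows genes to be compared within a library, and reads are the expected counts that RSEM estimates. Intervals and floors cover counting error only. Replicates of rBMSCs were tighter than those of rEEOs, with a median SD of log2 CPM over the tested genes of 0.0963 in rBMSCs and 0.382 in rEEOs (n = 3 each). Epithelial markers were called higher in rEEOs for 9 of 9 genes, where 16.3% of all genes tested were called higher and 13.3% lower. Of the uterine gland markers, Sox17 and Esr1 were also called higher and Pgr was not analysed here. Foxa2, on the same list, had 254, 2 and 79 reads in rEEOs replicates 1, 2 and 3 and was not tested. Pdgfrb, Thy1, Lum and Dcn, markers of mesenchymal cells, had no read in any rEEOs library. Dcn was low in rBMSCs as well, with 6, 8 and 9 reads. Of 10 mesenchymal markers tested 9 were called lower in rEEOs. Nt5e was not called, with 31, 20 and 32 reads in rBMSCs and 4, 1 and 14 in rEEOs. The summed TPM of the 11 mesenchymal markers was 41235 to 43530 in rBMSCs and 172 to 298 in rEEOs, nearly all of the latter from Vim. The rBMSCs also carried smooth muscle markers, with 5773 to 6535 TPM over Acta2, Des and Cnn1, against 0.72 to 1.08 TPM in rEEOs. The 4 blood and 3 endothelial markers held had at most 23 reads in any library, while Ptprc and Kdr, also on these lists, were not analysed here.

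The promoters of the leading Hox member of rBMSCs and of the leading other members of rEEOs and rBMSCs are shown because these 3 genes were read strongly in every library of one cell type and had no read in the other. Each is the 250 bases upstream of the start in RefSeq (build GRCr8), written on the strand of the gene, with CG dinucleotides, the sites of DNA methylation, in capitals.
Hoxa10, chr4:82671491-82671740, minus strand: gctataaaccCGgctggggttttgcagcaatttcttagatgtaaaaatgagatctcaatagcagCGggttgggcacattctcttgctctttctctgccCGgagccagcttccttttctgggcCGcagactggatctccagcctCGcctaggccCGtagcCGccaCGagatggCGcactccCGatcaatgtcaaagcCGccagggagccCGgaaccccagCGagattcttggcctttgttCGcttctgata
Pax8, chr3:27640632-27640881, minus strand: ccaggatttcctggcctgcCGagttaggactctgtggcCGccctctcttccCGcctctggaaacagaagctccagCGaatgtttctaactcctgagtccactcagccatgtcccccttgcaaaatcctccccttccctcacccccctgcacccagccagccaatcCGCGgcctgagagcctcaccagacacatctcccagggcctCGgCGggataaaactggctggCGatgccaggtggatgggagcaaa
Prrx1, chr13:78204074-78204323, minus strand: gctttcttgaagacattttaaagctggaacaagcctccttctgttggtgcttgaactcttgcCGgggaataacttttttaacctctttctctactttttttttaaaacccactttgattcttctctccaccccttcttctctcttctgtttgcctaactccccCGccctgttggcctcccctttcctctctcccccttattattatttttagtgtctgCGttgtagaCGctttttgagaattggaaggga
The Hoxa10 stretch held 14 CG dinucleotides, that of Pax8 9 and that of Prrx1 4. Over the 46 members with a RefSeq promoter entry the median was 14, and over the 13 Hox members among them, all of HoxA, HoxC or HoxD, it was 20, compared to 6 over all 27457 promoters of the same length. On both strands, TATAAA was found in 4 of the 46 (8.70%, against 13.09% of all promoters), Hoxa10 among them, and CCAAT in 22 (47.83%, against 34.29%), Pax8 and Prrx1 among them. The motif TGATNNAT, a Pbx and Hox site, was found in 3 (6.52%, against 7.75%) and the Meis site TGACAG in 8 (17.39%, against 15.62%). The 4 motifs were searched independently, so that matches may overlap each other, and a match is a description of the window and not of binding.

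The question addressed by the comparison of rEEOs with rBMSCs was which position-marking genes each cell type expressed. Among the Hox genes the clusters divided by cell type: every HoxB member was read in rEEOs and none was read in rBMSCs, whereas HoxA, HoxC and HoxD members were read mainly in rBMSCs. The summed level of the 8 HoxB members was 352.7, 265.6 and 333.3 TPM in rEEOs replicates 1, 2 and 3 and 0 in each rBMSCs library. The 9 HoxA members summed to 40.9, 39.2 and 36.9 TPM in rBMSCs replicates 1, 2 and 3 and to 0.78, 1.11 and 0.54 TPM in rEEOs. Thus, among the Hox members analysed, the expression in rEEOs lay almost wholly in HoxB, and the groups did not overlap in either cluster.

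HoxC and HoxD were low in rEEOs as well. The 4 HoxC members summed to 11.6, 10.6 and 9.05 TPM in rBMSCs replicates 1, 2 and 3 and to 0.04, 0 and 0.09 TPM in rEEOs. The 4 HoxD members summed to 16.4, 15.8 and 16.4 TPM in rBMSCs and to 0.14, 0.58 and 0.59 TPM in rEEOs. Of the 17 HoxA, HoxC and HoxD members, all but Hoxa2 had more reads in rBMSCs, and all 8 HoxB members had more in rEEOs. Hoxa2 had no clear direction, with 0, 1.89 and 5.58 reads in rBMSCs and 1.9, 3.83 and 1.87 in rEEOs. Across the 25 Hox members the total was 318.5 TPM ± 45.4 in rEEOs and 65.6 ± 3.25 in rBMSCs (SD, n = 3 each). The total of these members was therefore larger in rEEOs. It is partial, since 13 of the 39 Hox genes in RefSeq were not analysed here. Apart from Hoxb13 these belong to HoxA, HoxC and HoxD, the clusters read mainly in rBMSCs, so the total over all Hox genes is not known.

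**Figure D1:**
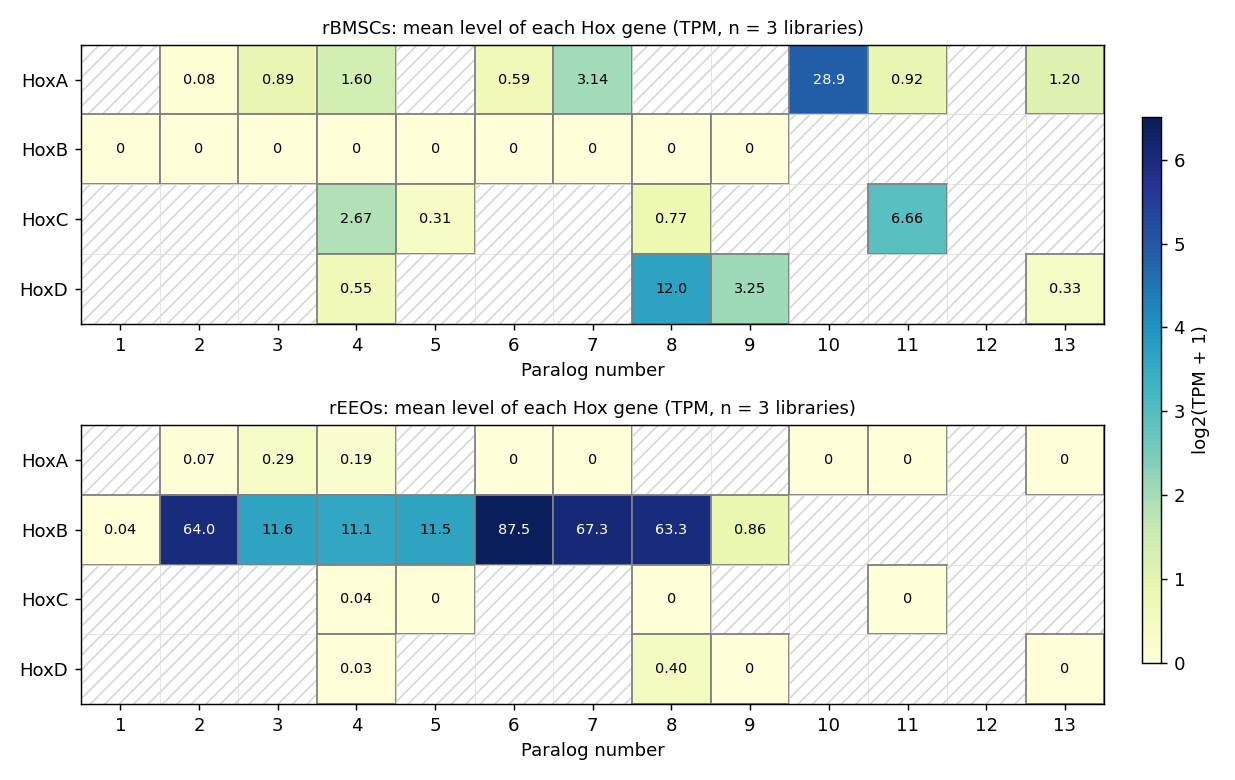
Mean level of each Hox gene in TPM (n = 3 libraries) by cluster and paralog number, rBMSCs above and rEEOs below, with color on a log2(TPM + 1) scale. Hatched cells are positions with no gene or with genes not analysed or not reported here, and Hoxb1, with a single read, is shown although it is not a member. The HoxB line is filled in rEEOs and at 0 throughout in rBMSCs, where Hoxa10 is the highest cell at 28.9 TPM.

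In the edgeR quasi-likelihood test with Benjamini-Hochberg adjustment, a gene was called at an adjusted p below 0.05 and an absolute log2 fold change above 2. Over all 10607 genes tested, 16.3% were called higher and 13.3% lower in rEEOs. Of the 25 Hox members 18 had enough reads to be tested, and 7 were called higher, 10 lower and 1 was not called. All 7 that were higher were HoxB genes, and the 10 that were lower comprised 5 HoxA, 2 HoxC and 3 HoxD genes. A gene under 10 counts in every library of one cell type enters the test only through the other cell type. Of these 18 genes 15 did so, 7 through rEEOs and 8 through rBMSCs, so these counts describe the genes and do not stand as support. In bulk RNA, fewer cells carrying a transcript and less transcript per cell cannot be told apart.

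Within HoxB the most abundant member in rEEOs was Hoxb6, with 1771, 1685 and 1612 reads in replicates 1, 2 and 3 (87.5 TPM ± 4.07). Its reads in rBMSCs were 0 in all 3 libraries, which put it at least 573.8-fold higher in rEEOs against a floor of 3 counts per library (edgeR, adjusted p = 3.52e-05). Hoxb7 had 1082, 563 and 684 reads in rEEOs (at least 253.4-fold, adjusted p = 4.54e-05). The 3 libraries were uneven for this gene, with replicate 1 the highest. Hoxb8 followed with 829, 652 and 849 reads (at least 262.5-fold, adjusted p = 5.47e-05). Hoxb2, a gene of the hindbrain end of the cluster, had 805, 808 and 1226 reads (at least 326.7-fold, adjusted p = 0.000204). These 4 genes were similar in level, at 87.5, 67.3, 64.0 and 63.3 TPM for Hoxb6, Hoxb7, Hoxb2 and Hoxb8, and each overlapped its neighbour in this order across the libraries.

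The middle genes of the cluster were lower. Hoxb3 had 397, 399 and 564 reads in rEEOs replicates 1, 2 and 3 (at least 156.2-fold higher than rBMSCs, edgeR adjusted p = 0.000223). Hoxb4, known for its part in blood stem cell expansion, had 215, 186 and 220 reads (at least 70.2-fold, adjusted p = 0.000144). Hoxb5 had 215, 115 and 208 reads (at least 59.6-fold, adjusted p = 0.000274). Their mean levels of 11.6, 11.1 and 11.5 TPM overlapped one another, and the highest library of these 3 genes (13.8 TPM) lay below the lowest library of the 4 above (48.6 TPM). Read in the order of paralog numbers, the HoxB levels in rEEOs were therefore high at Hoxb2, lower from Hoxb3 to Hoxb5, high from Hoxb6 to Hoxb8 and near the floor at Hoxb9. Hoxb9 had 17, 2 and 3 reads and was not tested, and Hoxb1 had a single read in 1 library.

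**Figure D2:**
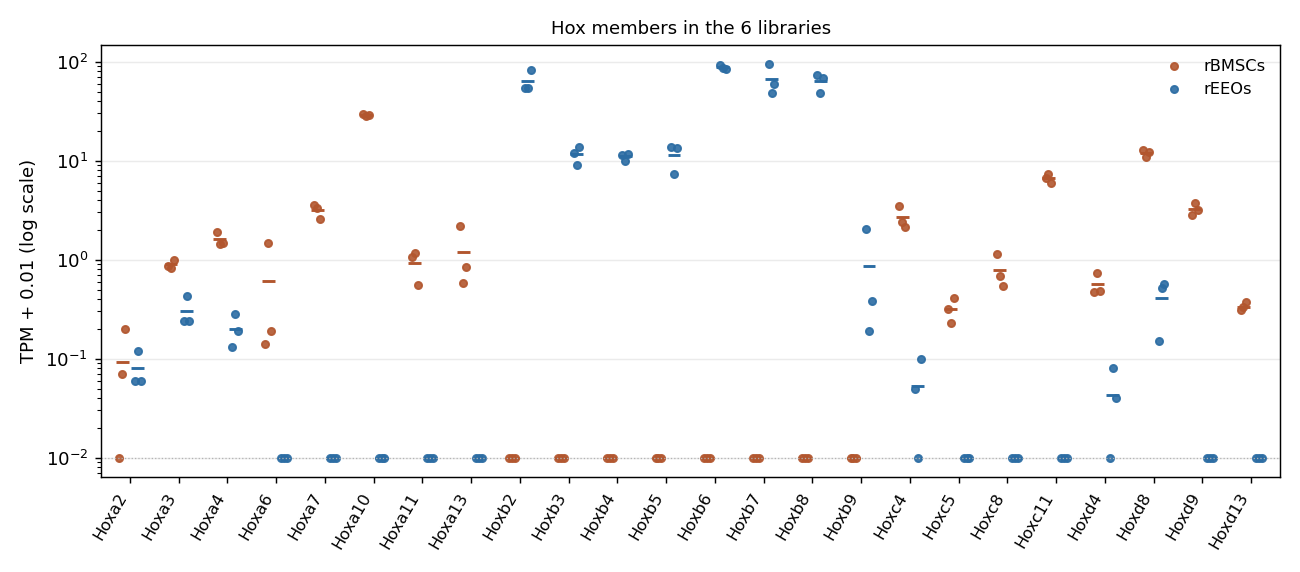
TPM plus 0.01 on a log axis for 24 Hox members in each library, ordered by cluster and paralog number, with points for single libraries and a bar for the mean of 3. Points on the dotted line are libraries with no read. The 8 HoxB genes lie on that line in rBMSCs, and every HoxA, HoxC and HoxD gene stays under 1 TPM in rEEOs.

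Summed by paralog number, the Hox levels followed the split by cluster, since Hoxb9 was the only HoxB member above paralog 8. Paralogs 9 to 13 summed to 41.3 TPM ± 1.57 in rBMSCs and to 0.863 ± 1.02 in rEEOs (SD, n = 3), and 6 of their 7 members had no read in any rEEOs library, Hoxb9 being the exception. Paralogs 1 to 4 summed to 7.42 TPM ± 0.79 in rBMSCs and 87.6 ± 18.9 in rEEOs. Paralogs 5 to 8 summed to 16.9 TPM ± 0.93 in rBMSCs and 230.0 ± 40.4 in rEEOs. Outside HoxB no paralog group was higher in rEEOs. Of the HoxA, HoxC and HoxD members tested at paralogs 1 to 4, 4 of 5 were called lower. At paralogs 5 to 8 it was 2 of 2 and at paralogs 9 to 13 it was 4 of 4, against 13.3% of all genes. Of these 11 members 8 passed the filter only through rBMSCs, which fixed their direction, so the counts are a description. Of the 39 Hox genes that RefSeq names, 13 were not analysed here, among them Hoxa9, Hoxb13, Hoxc9, Hoxc10, Hoxd10, Hoxd11 and Hoxd12, so the sums for the high paralogs in particular are partial.

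Hoxa10, which acts in the uterus at implantation, was the most abundant Hox gene of rBMSCs, with 848.5, 845.2 and 795.8 reads in replicates 1, 2 and 3 (28.9 TPM ± 0.60). It had no read in any rEEOs library and was at least 269.9-fold lower there (edgeR, adjusted p = 2.38e-05). Its promoter is the first of those printed above. Hoxa11, also required in the uterus and in the forearm, had 22, 26 and 11 reads in rBMSCs and none in rEEOs (at least 6.35-fold lower, adjusted p = 0.00257). Hoxa13 had 25.7, 7.14 and 9.5 reads in rBMSCs, none in rEEOs, and was not tested. All 3 of the HoxA genes known from the uterus, cervix and vagina were therefore unread in these organoids where a count of 0 allows a level of up to 0.181 to 0.262 CPM.

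The remaining HoxA genes were low in both cell types. Hoxa7 had 22.3, 22.6 and 15.7 reads in rBMSCs and none in rEEOs (at least 6.60-fold lower, edgeR adjusted p = 0.00101). Hoxa4 had 26, 21 and 19.5 reads against 2, 4.5 and 3 (log2 fold change −2.81, SE 0.43, adjusted p = 0.00153). Hoxa3 was below the fold threshold, with 23.4, 23.4 and 24.4 reads against 6.5, 12 and 7 (log2 fold change −1.42, SE 0.42, adjusted p = 0.0248). Thus the reads of the 9 HoxA members in rEEOs came from paralogs 1 to 4. Hoxa2 overlapped between the groups with at most 5.58 reads, and Hoxa6 had 0.80, 9.42 and 1.06 reads in rBMSCs and none in rEEOs. Of the 9 HoxA members 8 had counts that were not whole, which means that RSEM shared reads between transcripts, and Hoxa3 overlaps Hoxa4 and Hoxa6 in RefSeq, so that the division of reads among HoxA genes is uncertain.

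In HoxC and HoxD the leading genes of rBMSCs were Hoxd8 and Hoxc11. Hoxd8 had 231, 211 and 214 reads in rBMSCs and 3, 11 and 12 in rEEOs (log2 fold change −4.56, SE 0.55, edgeR adjusted p = 0.000553). Hoxc11, a gene of the hindlimb and tail, had 116, 134 and 99 reads against none (at least 37.8-fold lower in rEEOs, adjusted p = 0.000204). Hoxd9 had 45, 64 and 49 reads against none (at least 17.1-fold lower, adjusted p = 0.000451). For each of these genes the lowest rBMSCs library stood above the highest rEEOs library. Hoxc4 had 69, 54 and 44 reads in rBMSCs and 1, 0 and 2 in rEEOs (edgeR adjusted p = 0.000377). The ratio was 55.8, with a 95% counting interval of 18.8 to 273.3 (exact Clopper-Pearson). Hoxd4 had 42, 41 and 41 reads against 0, 6 and 3 (log2 fold change −3.66, SE 0.79, adjusted p = 0.00694), which moved to −4.70 without rEEOs replicate 2 and to −2.96 without rEEOs replicate 1. Hoxc5, Hoxc8 and Hoxd13, the last a gene of the digits, had 5 to 11 reads in every rBMSCs library and none in rEEOs, too few for the test. In rBMSCs, Hoxa10, Hoxd8 and Hoxc11 (28.9, 12.04 and 6.66 TPM) did not overlap their neighbours in the order of levels, while Hoxd9, Hoxa7 and Hoxc4 (3.25, 3.14 and 2.67 TPM) overlapped one another.

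RefSeq places other genes over 10 of the 25 Hox members, among them the noncoding gene Hoxb5os over Hoxb5 and Hoxb6 and the gene Hoxc6 over Hoxc4 and Hoxc5. The library protocol names no step that marks the strand, so reads from overlapping genes could not be told apart here. The genes that flank the 4 clusters in RefSeq order, the nearest 3 on each side that the table holds, were chosen after the values were seen. Of these 24 genes 22 were tested, none was called higher and 2 were called lower in rEEOs (Jazf1 beside HoxA and Chn1 beside HoxD). The shares over all genes tested were 16.3% higher and 13.3% lower. Next to HoxB, Snx11 had 389, 403 and 366 reads in rBMSCs and 395, 363 and 384 in rEEOs (log2 fold change 0.01, edgeR adjusted p = 0.970). Ube2z, Snf8, Cbx1 and Nfe2l1 around the same cluster were also read in all 6 libraries, with none of them called. Ttll6, the nearest flanking gene of HoxB in the table, had no read in rBMSCs and 0, 4 and 6 reads in rEEOs, and was not tested. Thus 5 of the 6 genes around HoxB had reads in the rBMSCs libraries in which the cluster itself had none, and the nearest did not.

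Regulators of Hox genes were described from lists. Polycomb proteins keep Hox clusters silent, and of 12 genes tested 2 were called higher and 1 lower in rEEOs, near the shares of 16.3% and 13.3% over all genes. By the adjusted p alone 2 were higher and 4 lower, the latter with Ezh2 (log2 fold change −1.27, edgeR adjusted p = 0.00785), Eed and Phc2 beside Phc1. By this measure 33.3% of all genes tested were higher and 30.2% lower. Cbx7 had 0, 0 and 2 reads in rBMSCs replicates 1, 2 and 3 and 537, 551 and 609 in rEEOs, and Ezh1 was higher by a log2 fold change of 2.17. Phc1 was called lower (log2 fold change −2.35), and none of 5 Trithorax group or demethylase genes tested was called. Retinoic acid turns on Hox genes from the head end of a cluster, and Aldh1a2 and Aldh1a1, genes of its synthetic enzymes, were higher in rEEOs. Aldh1a3, Rarb and Cyp26a1, also on this list, were not analysed here. Cyp26b1 had at most 8 reads in any library and was not tested. Aldh1a2 had 4, 5 and 3 reads in rBMSCs and 3502, 2947 and 2513 in rEEOs (log2 fold change 9.51, SE 0.23, edgeR adjusted p = 4.29e-06), and Aldh1a1 had none in rBMSCs and 1582.6, 732.9 and 1381.4 in rEEOs. The receptor gene Rarg was called lower in rEEOs (log2 fold change −2.55). Rara, also a receptor gene, was lower without reaching the fold threshold (log2 fold change −1.65, edgeR adjusted p = 0.000101). Of the 4 retinoic acid genes tested 2 were called higher and 1 lower, against 16.3% and 13.3% of all genes. By the adjusted p alone 2 were higher and 2 lower, against 33.3% and 30.2% of all genes. Of 4 other regulators tested, Cdx2, an activator of Hox genes in the gut and tail bud, was called higher with 74, 33 and 26 reads against none, and Gdf11, which patterns the trunk, was lower (log2 fold change −5.21). The part of these regulators in the Hox levels was not tested.

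Among the members outside the Hox clusters, Pax8, Pax2 and Emx2, factors of the Müllerian duct epithelium, were higher in rEEOs. Pax8 was the most abundant of all members, with 10611, 9981 and 13362 reads in the 3 rEEOs libraries (396.9 TPM ± 63.6) and not a read in rBMSCs (at least 3876-fold higher, edgeR adjusted p = 5.39e-05). Pax2, the relative of Pax8 used in the kidney and the ducts, had 542, 281 and 445 reads against none (at least 139.3-fold). Both genes were read in every rEEOs library far above any rBMSCs library. Emx2, needed to form the urogenital tract, was read in both cell types, with 881, 348 and 530 reads in rEEOs and 131, 128 and 143 in rBMSCs (log2 fold change 2.08, SE 0.24, adjusted p = 0.000493). Its log2 fold change fell under the threshold of 2 without rEEOs replicate 1 (1.91) and with limma on log2(TPM + 1) or log2(TPM + 0.1) (1.6 and 1.77).

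Genes of the Dlx, Msx, Lhx and Irx families made up most of the other members higher in rEEOs. Dlx5, which with Dlx6 acts in the formation of uterine glands, had 498, 215 and 467 reads in rEEOs and 8, 14 and 4 in rBMSCs (log2 fold change 5.47, SE 0.49, edgeR adjusted p = 0.000162). Dlx6, its neighbour in the genome, had 79, 36 and 44 reads against none (at least 17.1-fold). The pair ran opposite to Dlx1 and Dlx3, which were lower in rEEOs. Msx1, known in uterine epithelium at implantation, had 437, 53 and 244 reads in rEEOs and 43, 40 and 42 in rBMSCs (log2 fold change 2.45, SE 0.61, adjusted p = 0.0128), and lost the call without rBMSCs replicate 2 (adjusted p = 0.0504) and with limma at either pseudocount (log2 fold changes 1.59 and 1.82, adjusted p = 0.0749 for both). Lhx3, best known from pituitary and motor neurons, had 393, 182 and 431 reads against 15, 10 and 6 (log2 fold change 5.0, SE 0.46). Lhx6, a gene of cortical interneurons, had 36, 43 and 54 reads against 1, 0 and 1 (ratio 66.3, 95% counting interval 18.0 to 553.5). For Dlx5, Lhx3 and Lhx6 every rEEOs library was above every rBMSCs library by a wide margin, while for Msx1 rEEOs replicate 2 was close to rBMSCs. Irx2 had 69, 245 and 87 reads in rEEOs and none in rBMSCs (at least 48.5-fold higher, adjusted p = 0.00412).

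**Figure D3:**
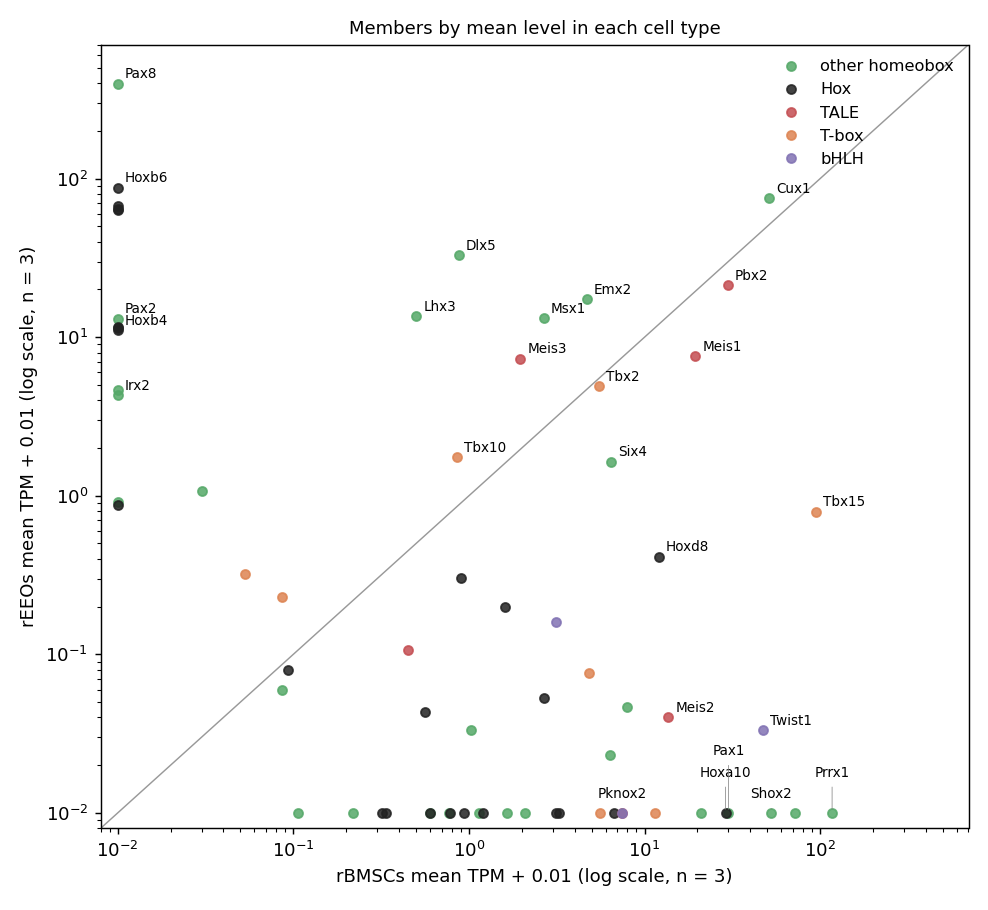
Mean TPM plus 0.01 of 69 members in rBMSCs (x axis) and rEEOs (y axis), both on log axes, n = 3 libraries each, colored by family, with the line of equal level. Pax8 and the HoxB genes lie along the left edge, the mesenchymal factors along the lower edge, and Cux1, Pbx2 and Tbx2 near the line.

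Among the most abundant members in rBMSCs were factors of limb, trunk and face mesenchyme. Prrx1, which marks limb bud and skeletal progenitors, had 1590, 1419 and 1613 reads in rBMSCs replicates 1, 2 and 3 (117.0 TPM ± 14.5) and none in rEEOs (at least 502.1-fold lower, edgeR adjusted p = 2.27e-05). Its relative Prrx2 had 682, 782 and 668 reads against none (at least 231.1-fold). Shox2, a gene of the upper segment of the limbs, had 768, 701 and 686 reads against none (at least 233.7-fold). These paired-class genes were steady among the rBMSCs libraries and unread in all rEEOs libraries. Pax1, a marker of the sclerotome that forms the vertebrae, had 1030, 1029 and 1014 reads against none (at least 333.5-fold). The Pax genes were thus split, with Pax2 and Pax8 in rEEOs and Pax1 in rBMSCs.

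Several T-box and bHLH factors were also read mainly in rBMSCs. Tbx15, which acts in skeletal and fat precursors, had 3883, 3402 and 3502 reads in rBMSCs and 10, 2 and 97 in rEEOs (log2 fold change −6.54, SE 1.19, edgeR adjusted p = 0.00343). Its size rested on rEEOs replicate 3, without which the log2 fold change was −9.31. Tbx18, a gene of ureter and heart mesenchyme, had 557, 479 and 578 reads against none (at least 175.4-fold lower). Tbx5, the forelimb and heart factor, had 117, 139 and 173 reads against none (at least 46.7-fold), while Tbx4, its hindlimb counterpart, had at most 16 reads in any library and was not tested. Both Tbx5 and the hindlimb gene Hoxc11 were therefore read in the same rBMSCs libraries. Twist1, a regulator of mesenchyme, had 593, 666 and 554 reads in rBMSCs against 1, 0 and 0, and Twist2, Hand2 and Tbx3 were also called lower, so that 4 of 6 T-box and 3 of 3 bHLH members tested were called lower and none higher, against 13.3% and 16.3% of all genes. Of these, 3 T-box and all 3 bHLH members passed the filter only through rBMSCs, which fixed their direction. The smooth muscle markers given above were high in the same rBMSCs libraries, and their part in these levels was not tested.

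The remaining members lower in rEEOs came from several families. Nkx2-3, known from gut and spleen mesenchyme, had 490, 501 and 419 reads in rBMSCs and none in rEEOs (at least 152.7-fold lower, edgeR adjusted p = 4.27e-05). Irx3 had 144, 137 and 131 reads against 0, 1 and 0, the reverse of Irx2. Lhx2 had 137, 127 and 137 reads against 2, 0 and 0, the reverse of Lhx3 and Lhx6. Among tested members, NK-like genes (here Dlx, Emx, Msx and Nkx) gave 4 higher and 4 lower, LIM genes (Lhx and Lmx1) 2 and 2, Iroquois genes 1 and 1 and paired genes (Pax, Prrx and Shox2) 2 and 4, where 16.3% of all genes were higher and 13.3% lower. These counts are a description, since 5 of 8 NK-like, 3 of 4 LIM, 2 of 2 Iroquois and 6 of 6 paired genes entered the test through a single cell type. Lmx1a (59, 61 and 59 reads) and Nkx3-2 (26, 22 and 35 reads), the latter a gene of early cartilage, were read in rBMSCs only.

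Of the 6 TALE genes tested, 1 was called higher, 2 were called lower and 3 were not called, where 16.3% of all genes were higher and 13.3% lower. The 2 called lower passed the filter only through rBMSCs, so these counts are a description. Pbx2 was read at 30.2, 30.1 and 28.9 TPM in rBMSCs and 25.5, 19.8 and 18.7 TPM in rEEOs (log2 fold change −0.24, SE 0.12, edgeR adjusted p = 0.124), and its sign turned when libraries were scaled by size only (0.14). Meis1 was read at 19.5, 18.4 and 20.3 TPM in rBMSCs and 5.96, 11.2 and 5.60 TPM in rEEOs (log2 fold change −1.0, SE 0.38, adjusted p = 0.0589). Neither was called.

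Other TALE genes differed. Meis2 had 400, 407 and 366 reads in rBMSCs and 0, 2 and 1 in rEEOs (ratio 391.9, 95% counting interval 133.8 to 1903). Pknox2 had 223, 236 and 218 reads against none (at least 73.4-fold lower, edgeR adjusted p = 8.39e-05). Meis3 went the other way, with 28, 42 and 32 reads in rBMSCs and 89, 159 and 202 in rEEOs (log2 fold change 2.23, SE 0.46, adjusted p = 0.00603), and lost its call without rEEOs replicate 3 (log2 fold change 1.91) and with limma at either pseudocount (1.44 and 1.79). The Meis genes therefore stood apart from each other, with Meis1 read in both cell types, Meis2 in rBMSCs and Meis3 higher in rEEOs.

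**Figure D4:**
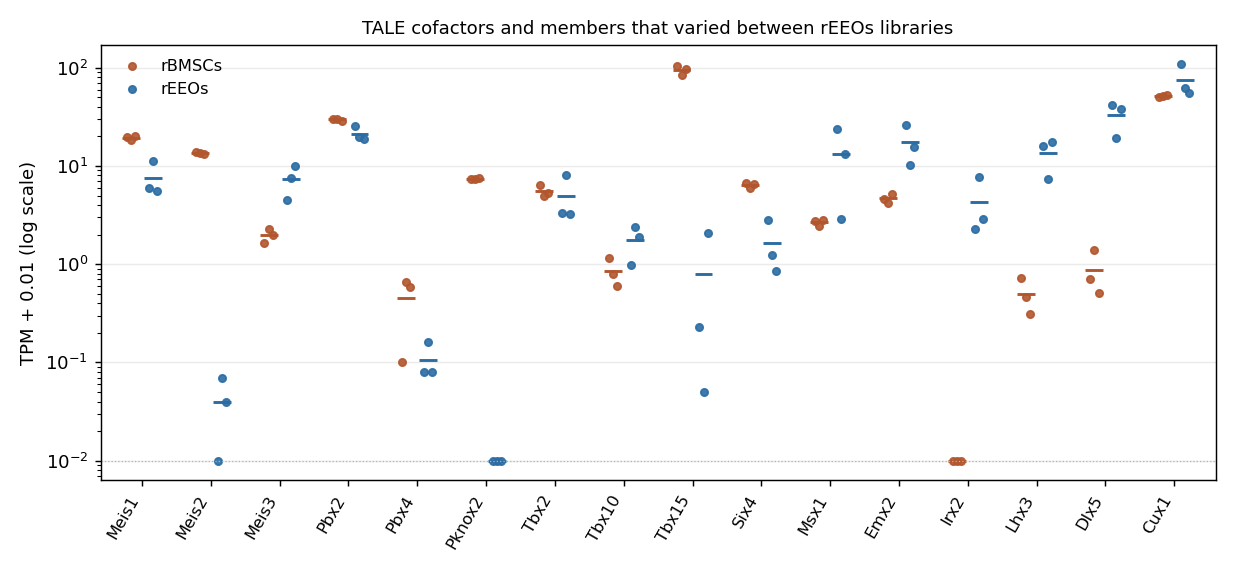
TPM plus 0.01 on a log axis in each library for 6 TALE members and for further members with a wide spread among rEEOs libraries or no call, with a bar for the mean of 3. The rBMSCs points lie close together for most genes, while in rEEOs Msx1 spans 2.85 to 23.5 TPM and Irx2 2.25 to 7.80 TPM.

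Across all 74 members, 57 were tested and 17 were under the filter of 10 counts in 3 libraries. Of the 57, 18 were called higher and 31 lower in rEEOs, and 8 were not called. Of all genes tested, 16.3% were called higher and 13.3% lower. By the adjusted p alone 19 were higher and 33 lower, where 33.3% and 30.2% of all genes tested passed in these directions. The median log2 fold change of the 57 was −3.66, or −2.72 with groups of no reads set to their bound, against 0.08 over all genes tested. Of the 57, 13 passed the filter only through rEEOs and 28 only through rBMSCs, so that these members had to differ, and the counts are a description. Over all genes tested, 9.61% passed only through rEEOs and 5.84% only through rBMSCs. Of the 74 members, 26 had no read in any rEEOs library and 14 had none in any rBMSCs library, where 5.95% and 13.2% of all 13728 genes had none.

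The tested members that were not called included Hoxa3, Cux1, Meis1, Pbx2, Six4, Tbx10 and Tbx2. Cux1, a widely expressed factor, was the member with the highest level shared by both cell types, at 50.03, 51.4 and 52.7 TPM in rBMSCs and 108.0, 62.0 and 55.9 TPM in rEEOs (log2 fold change 0.69, SE 0.19, edgeR adjusted p = 0.0169). Tbx2 overlapped between the groups, at 6.33, 4.93 and 5.27 TPM in rBMSCs and 3.33, 8.16 and 3.23 TPM in rEEOs (log2 fold change 0.14, SE 0.53, adjusted p = 0.827), and its sign changed with the processing. Six4 had 434, 409 and 409 reads in rBMSCs and 220, 94 and 65 in rEEOs (log2 fold change −1.80, SE 0.33, adjusted p = 0.00357), and was called lower without rEEOs replicate 1 (log2 fold change −2.19). Tbx10 overlapped between the groups (log2 fold change 1.37, SE 0.52, adjusted p = 0.0570). A missed threshold with 3 libraries a group does not show that these genes were equal.

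Among rEEOs libraries, replicate 1 held the highest level of several members. Replicate 1 was the highest for Msx1, Emx2, Six4 and Cux1. Replicate 2 held the most reads of Irx2, Tbx2 and Meis1. Foxa2, a factor of uterine glands and not a member, was likewise uneven, with 254, 2 and 79 reads in the 3 rEEOs libraries, and its part in the spread of these members was not tested. Barx2, a member under the filter, had 29, 8 and 18 reads in rEEOs and none in rBMSCs.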

How the data were processed

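RNA-seq of 3 rEEOs and 3 rBMSCs samples was compared. Per the study's methods and the submitters' processing notes, the authors trimmed reads with Trim Galore, aligned them with Bowtie2 2.2.5 to a rat reference (Rnor_6.0) and estimated expression with RSEM. In the deposited table every gene has an expected count, a TPM and an FPKM per library. TPM was used for levels, and the deposited FPKM values, which carry the same information, were not used. The copy analysed here holds 13728 genes, which carry 81.3% to 82.7% of the TPM scale, and 7.31% to 8.44% of its counts are not whole. Its last line has 23 of 27 fields.

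The members and lists were chosen with earlier results of these data known. Of the 74 members, 70 matched RefSeq (GRCr8) by gene ID and all by symbol; 4 HoxA members, Hoxa10 and Hoxa11 among them, carry other IDs there. The values of some members are not reported here, though they are part of the counts and sums. After rounding, genes reaching 10 expected counts in 3 or more libraries (10607) entered the test of edgeR 4.0.16 (R 4.3.3; TMM, glmQLFit, glmQLFTest, Benjamini-Hochberg adjustment), with cell type as the only term. The TMM factors were 0.866 to 0.885 in rBMSCs and 1.10 to 1.20 in rEEOs. The standard error was the log2 fold change divided by the square root of F. With 3 samples a group an exact permutation test of a single value cannot go below p = 0.1, so none was run. Against a group with no read in any library the fold is a lower bound at 3 counts per library on TMM-scaled CPM. With 1 to 3 reads in all, the ratio is given with an exact interval. Any tested member could be named. Hox and TALE genes are given in full, and of the others the called genes with the 6 largest and 6 smallest log2 fold changes. Further members, those under the filter among them, were chosen after their values were seen. Replicate numbers did not pair the samples, as given among the limits. Alternatives were DESeq2 1.42.0, its size factors, library size only, filters of 3 counts in any library or 50 counts in 3, limma 3.58.1 on log2(TPM + 1) and log2(TPM + 0.1), leaving out each library, and a replicate block. Pairs of libraries of a group differed by more than sampling noise, so none was treated as a second reading of the same library. This cannot tell separate cultures from separate preparations of the same culture.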

Additional observations from a re-analysis of the deposited data

How the results depend on the processing

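Of the 57 members tested, 46 kept their call in every alternative with a value and 11 changed it in some. With a filter of 50 counts in 3 libraries, which tests fewer genes, 20 members (31 before) and 3 Hox genes (10 before) were called lower in rEEOs. With limma on log2(TPM + 1), which shrinks the fold of low genes, 5 Hox genes were called lower. Leaving out 1 library at a time gave 17 to 18 members higher and 30 to 33 lower, and 7 Hox genes higher and 9 to 10 lower. The direction turned for Pbx2 with library size only (log2 fold change 0.14) and for Tbx2 with limma on log2(TPM + 1) (−0.23) and log2(TPM + 0.1) (−0.29), neither of which was called. Leaving out each library, Tbx2 lay between −0.67 (without rEEOs replicate 2) and 0.52. Scaling by library size only moved the median log2 fold change of all genes by 0.38, and limma on TPM moved it by −0.30 to −0.32. Deviations of same-numbered samples correlated at 0.14, 0.16 and −0.13 over 10607 genes, so the numbers were not taken as a pairing. With a replicate block 18 members were higher and 31 lower, and 7 Hox genes were higher and 10 lower, as without it, while Tbx2 was −0.13. Depth leaves members near 3 counts undecided.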
